A study of Mus musculus with 9 samples.

Results

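The subject here is the stretch of mouse chromosome 10 that holds the genes Ahi1, Myb and Hbs1l, and the CTCF binding mapped along it in CD8+ T cells. All peaks of 8 CTCF CUT&RUN libraries that overlapped chr10:20550000-21100000 (build mm9) were taken, and those sharing at least 1 bp were merged, which gave 30 regions out of 39574 merged in the same way over chromosomes 1 to 19 and X. The interval had been picked because many of its regions had a peak in naive wild-type cells and not in naive cells without Tcf1 and Lef1, so the genotype difference at 0 h is given below as a description, with no test. The libraries came from 4 groups of 2: Tcf1-/-Lef1-/- cells (DKO) after 72 h and at 0 h, and wild-type cells (WT) after 72 h and at 0 h, with 1 further IgG library of WT cells at 0 h. Per the labels, mice of both genotypes carried a Cre transgene under human CD2 elements, which is active in lymphoid cells, and a Rosa26 GFP reporter that Cre switches on. The DKO mice had floxed alleles of both Tcf1 and Lef1, and the WT mice had wild-type alleles. GFP+ TCRbeta+ CD62Lhi CD44lo-med CD8+ T cells were sorted from the spleen and taken directly (naive, 0 h) or cultured for 72 h with IL-7 and IL-15, the cytokines that keep naive and memory CD8+ T cells alive, and live cells were used. The age and sex of the mice, and whether replicates came from separate animals, were not given, so the spread between replicates may be technical. Peak lists carry no expression values, so neither the loss of Tcf1 and Lef1 nor the cell type could be checked against them.

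CTCF is a zinc-finger protein that binds a long DNA motif and halts the cohesin ring as it extrudes chromatin, so that its sites lie at loop anchors and at the borders of insulated neighbourhoods. Myb encodes c-Myb, a DNA-binding transcription factor needed in blood progenitors and developing thymocytes and linked in CD8+ T cells to the upkeep of stem-like memory cells. Ahi1 encodes jouberin, a protein of the primary cilium, and Hbs1l a GTPase that works with Pelota to rescue stalled ribosomes. In erythroid cells, enhancers between Myb and Hbs1l contact the Myb promoter. Tcf1 and Lef1 are HMG-box proteins that bind DNA as partners of beta-catenin and guide T cell development.

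In the RefSeq annotation of GRCm38, used here for names and gene order only, Ahi1 lies at lower coordinates than Myb and Hbs1l at higher. Myb is on the minus strand and Hbs1l on the plus strand, so that both are transcribed away from the stretch between them. That stretch holds the lncRNA genes Gm40608, Gm33619, Gm33671 and Gm33728 and the pseudogene Gm2467, and 1 lncRNA gene, Gm20149, stands between Ahi1 and Myb in the order of gene starts. Neither genes nor sequence of mm9 were used here, so regions are given by position, with no statement of gene, exon or intron, and their sequences are not shown.

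Fewer of the regions had a peak in DKO cells than in WT cells at the same time. A peak was listed at 3 and 6 of the 30 regions in the DKO libraries after 72 h and at 12 and 12 in the DKO libraries at 0 h. In WT cells it was listed at 10 and 15 regions after 72 h and at 24 and 22 regions at 0 h. The group means were 4.5 ± 2.12 regions in cultured DKO cells, 12 ± 0 in naive DKO cells, 12.5 ± 3.54 in cultured WT cells and 23 ± 1.41 in naive WT cells (SD, n = 2 each). At neither time did the DKO and WT libraries overlap in this count. That is partly set by the choice of the interval, since 16 of the 30 regions had WT peaks only. At 72 h the DKO lists were also shorter than the WT lists, as given next.

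The lists themselves differed in length, mostly at 72 h. They held 10339 and 16234 peaks in cultured DKO cells, 30309 and 31392 in naive DKO cells, 17335 and 26630 in cultured WT cells, and 32585 and 30967 in naive WT cells. Absolute read depth is unknown, and the lists hold no peak with a fold under 4, so an absent peak means that none was listed. Set against its own list, the interval held 2.90 and 3.70 of every 10000 peaks in cultured DKO cells and 3.96 and 3.82 in naive DKO cells, against 5.77 and 5.63 in cultured WT cells and 7.37 and 7.10 in naive WT cells. The DKO shares thus all lay below the WT shares, but their 95% intervals (exact Clopper-Pearson, for counting error alone) are wide and overlap: 0.598 to 8.48 for the DKO replicate 1 list at 72 h, and 2.77 to 10.6 for the WT replicate 1 list at 72 h. The interval was chosen for regions listed in naive WT cells alone, so this order is partly set by the choice. The 95% intervals take no account of that choice and are no test of the genotypes. The IgG list held 5 peaks, of which 0 lay in the interval.

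**Figure D1:**
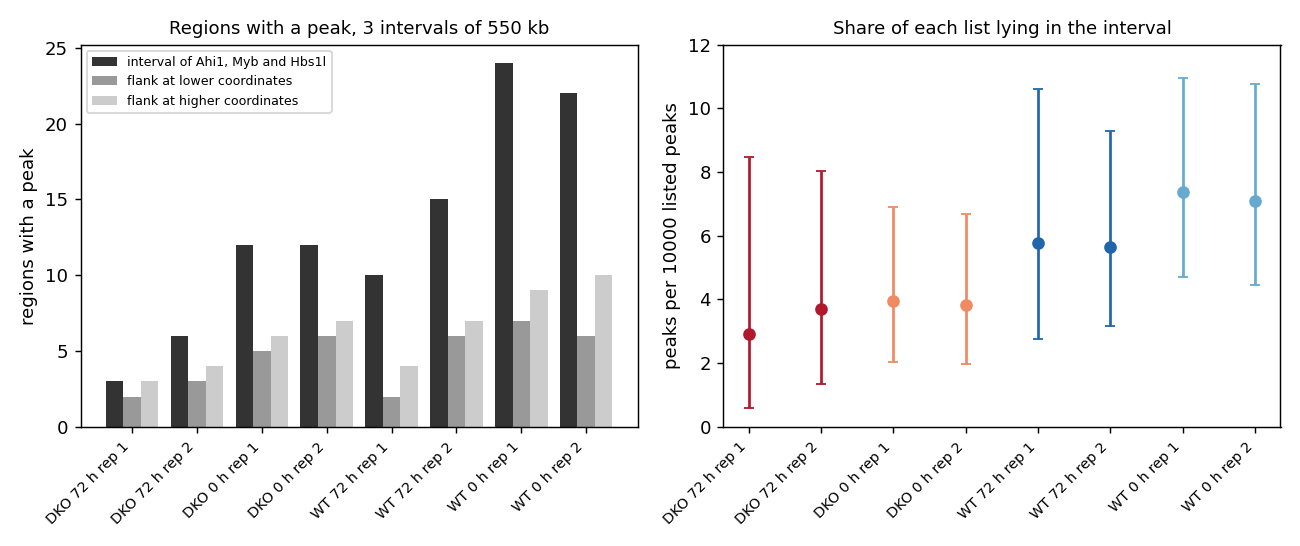
Left, the number of merged regions with a CTCF peak in each library (bars from 0) for the interval and for the 550 kb on either side; right, peaks in the interval per 10000 listed peaks, with exact 95% intervals for counting error. The DKO libraries have 3 to 12 regions with a peak in the interval and the WT libraries 10 to 24, while in the flanks every library has between 2 and 10.

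The 550 kb on either side showed smaller differences between the genotypes. At 0 h, the flank at lower coordinates had a peak at 5 and 6 regions in DKO and at 7 and 6 in WT, and the flank at higher coordinates at 6 and 7 in DKO and at 9 and 10 in WT. These flanks held 7 and 11 regions in all, of which 1 and 1 were WT-only at 0 h, meaning listed in both WT libraries and absent from both DKO libraries. Whether the interval differs from its flanks was not tested, because it had been chosen on this count. The nearest region outside the lower edge, chr10:20224572-20225032, lay 324968 bp away and had a peak in DKO replicate 2 (fold 8.10) and in both WT libraries (6.61 and 5.34) at 0 h. The region just inside that edge, chr10:20554419-20555290, had no peak in naive DKO cells and a peak of fold 4.07 in naive WT replicate 2. At the upper edge, the region just inside, chr10:21098162-21098973, had folds of 9.66 and 5.59 in naive DKO cells and of 11.5 and 6.62 in naive WT cells. The region just outside, chr10:21102328-21103600, began 2328 bp beyond the edge and had folds of 16.2 and 12.8 in naive DKO cells and of 16.8 and 17.2 in naive WT cells.

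The 30 regions fell into 4 classes. A peak was present in all 4 libraries of 0 h at 10 regions, the CTCF sites that naive cells of both genotypes share. A further 9 regions were WT-only at 0 h, 9 were listed in a single library, and 2 had other combinations. A peak in all 4 libraries of 0 h was thus found at 33.3% of the regions here, against 61.8% over the whole series. The 30 regions include the 9 WT-only ones for which the interval was chosen, so this share is partly set by the choice. By number, the flanks of the same width held 4 and 6 regions with a peak in all 4 libraries of 0 h, against 10 here. A peak in a single library was found at 30% here, against 14.7% over the whole series. The single-library regions were weak, with folds from 4.04 to 5.82, and came from DKO at 0 h (1 in each replicate), WT at 72 h (1 in replicate 2) and WT at 0 h (4 in replicate 1 and 2 in replicate 2).

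**Figure D2:**
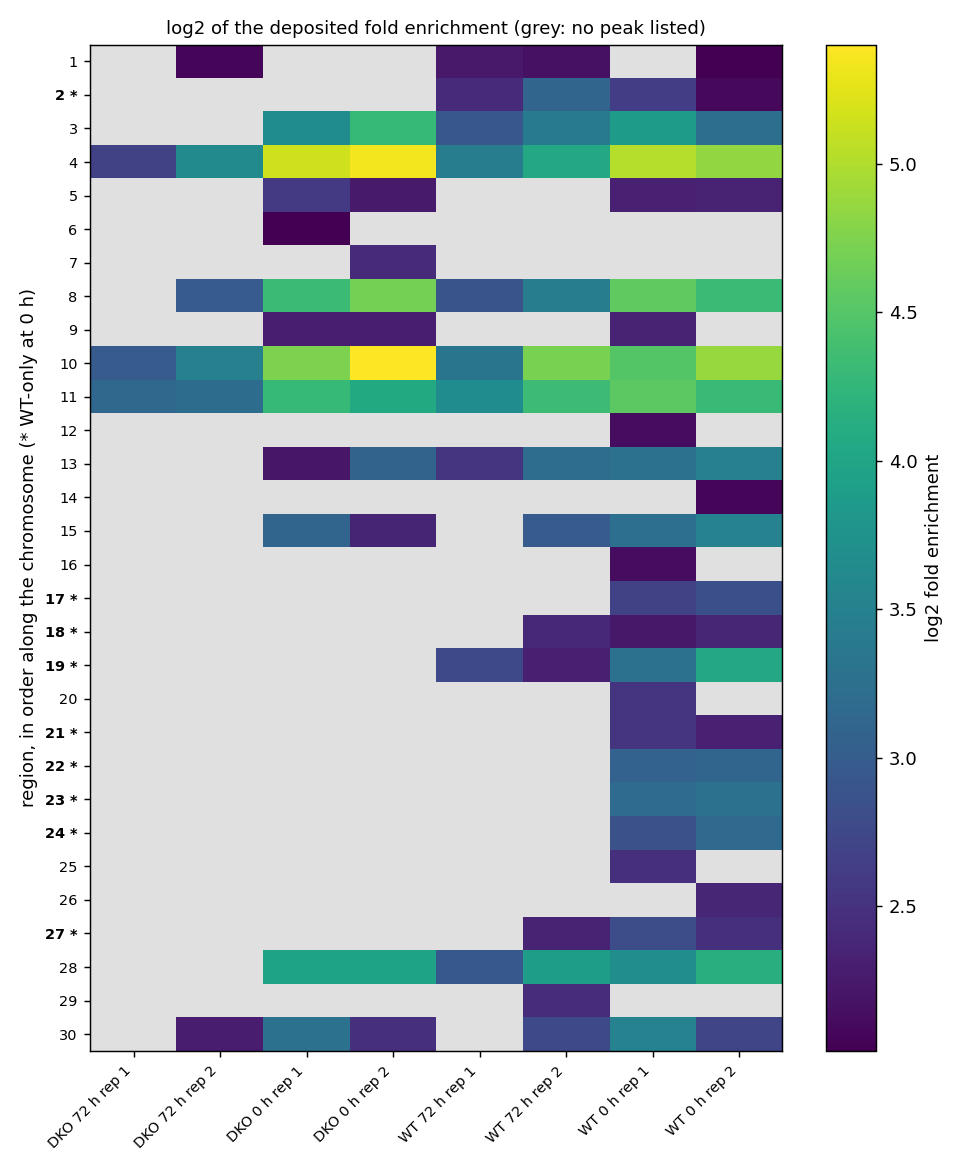
Log2 of the deposited fold enrichment for each of the 30 regions (rows, in order along the chromosome, starred where WT-only at 0 h) in each library (columns); grey means that no peak was listed. Rows 4, 10 and 11 are coloured in all 8 libraries, and rows 16 to 27 are grey in all 4 DKO libraries.

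The strongest sites of the interval were shared by both genotypes. Peaks in all 8 libraries were found at 3 of the 30 regions (10%), against 24.2% of all regions of the series. The same limit holds for this share, and the flanks held 2 and 3 such regions. At chr10:20667947-20669055 the fold enrichment, which is the authors' value for each peak over its local background, was 6.38 and 12.3 in cultured DKO cells and 35.5 and 40.4 in naive DKO cells. It was 10.9 and 16.7 in cultured WT cells and 32.7 and 28.8 in naive WT cells. The folds of naive cells were thus above all those of cultured cells in both genotypes, and at 0 h both DKO values lay above both WT values.

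Dividing each fold by the median fold of its own list kept that order between times. At the same region this gave 0.907 and 1.52 in cultured DKO cells and 3.43 and 3.91 in naive DKO cells, against 1.38 and 1.84 in cultured WT cells and 3.23 and 2.94 in naive WT cells. The list medians were 7.03 and 8.05 in cultured DKO cells, 10.4 and 10.3 in naive DKO cells, 7.89 and 9.06 in cultured WT cells, and 10.1 and 9.78 in naive WT cells. The lists have different lengths, so these ratios describe each list and are no test of a change.

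The other 2 regions found in every library behaved less evenly. At chr10:20711774-20713103 the fold was 7.91 and 11.2 in cultured DKO cells and 26.7 and 42.3 in naive DKO cells, where replicate 2 had the highest fold of the interval. It was 10.01 and 26.3 in cultured WT cells and 22.6 and 29.5 in naive WT cells, so that WT replicate 2 at 72 h stood among the naive values. At chr10:20877307-20879055 it was 8.86 and 9.25 in cultured DKO cells and 19.6 and 16.8 in naive DKO cells, and 12.6 and 20.2 in cultured WT cells and 23.3 and 19.9 in naive WT cells. At 1749 bp this was the widest region of the interval, and its DKO folds lay below the WT folds of the same time, in all libraries. The summits of the 8 libraries fell within 90, 50 and 197 bp of each other at these 3 regions, in the order given.

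A further region, chr10:20685411-20686641, had a peak in 7 libraries. Its folds were 7.94 in cultured DKO replicate 2 and 20.1 and 25.8 in naive DKO cells, against 7.45 and 10.9 in cultured WT cells and 23.9 and 19.96 in naive WT cells. The library without a peak was DKO replicate 1 at 72 h, which has the shortest list. At the remaining 6 regions found in all naive libraries, the fold ranged from 4.64 to 19.5 in naive DKO cells and from 5.02 to 17.8 in naive WT cells.

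At 9 of the 30 regions (30%) the peak was WT-only at 0 h, against 4.88% of all regions of the series; the interval was chosen for this count. The reverse pattern, present in DKO and absent in WT, was found at 0 regions, against 2.73% over the series. Of the 9, 7 lay within the 31922 bp of chr10:20943196-20975117, where neighbouring regions were between 577 and 10233 bp apart. The other two were chr10:20602476-20603081 and chr10:21055674-21056346. The lists of naive cells differ little in length, and with the same 30309 strongest peaks of each, 8 regions were WT-only and 1, chr10:20702799-20703269, was found in DKO alone.

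**Figure D3:**
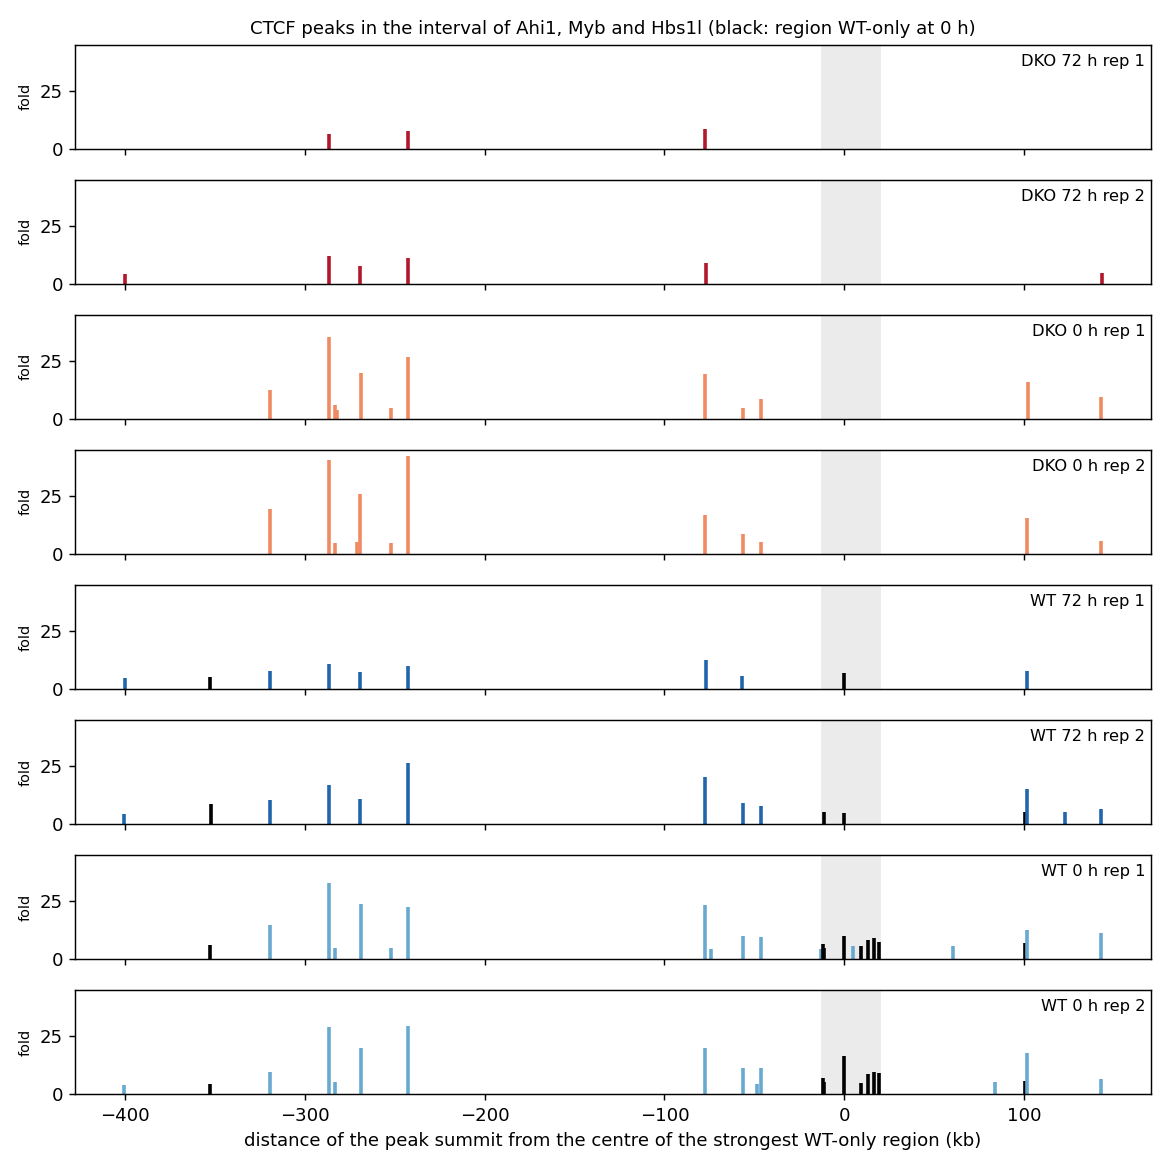
Deposited fold enrichment of each CTCF peak in the interval (vertical axis, 0 to 45, 1 panel per library) against the distance of its summit from the centre of the strongest WT-only region, in kb; black marks regions that are WT-only at 0 h and grey shading the stretch of chr10:20943196-20975117. The shaded stretch holds 0 regions with a peak in each of the 4 DKO libraries, against 1 and 2 in the WT libraries at 72 h and 8 and 7 in the WT libraries at 0 h.

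The dense stretch was led by chr10:20954710-20955861. This region had no peak in any DKO library. Its fold was 6.78 and 4.98 in cultured WT cells and 9.82 and 16.6 in naive WT cells, and by the authors' p-value its peaks stood at percentiles 71.5 and 80.5 of the 2 naive WT lists. Its peaks were 301 and 597 bp wide in cultured WT cells and 1111 and 1025 bp wide in naive WT cells. The naive widths lay within the range of the sites found in all 8 libraries, which was 666 to 1391 bp in replicate 1 and 950 to 1643 bp in replicate 2. The cultured widths lay below that range, which was 482 to 883 bp in replicate 1 and 604 to 1398 bp in replicate 2 of cultured WT cells.

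Next in fold came a trio of regions spread over a few kb at the upper end of the stretch, each with a peak in both naive WT libraries and in no other library. The folds in naive WT cells were 8.48 and 8.66 at chr10:20968411-20968922, 9.15 and 9.68 at chr10:20971708-20972625, and 7.24 and 8.998 at chr10:20974249-20975117. The summits of the 2 naive WT libraries lay 7, 72 and 14 bp apart at these regions. The remaining regions of the stretch were weaker, with folds in naive WT cells of 5.80 and 5.02 at chr10:20964672-20965221, of 6.44 and 7.19 at chr10:20943196-20943592 and of 4.69 and 5.21 at chr10:20944170-20944476. The last of these also had a peak of fold 5.29 in cultured WT replicate 2.

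The 2 isolated WT-only regions were also weak. At chr10:20602476-20603081 the fold was 5.37 and 8.64 in cultured WT cells and 6.18 and 4.24 in naive WT cells. At chr10:21055674-21056346 it was 5.06 in cultured WT replicate 2, with no peak in replicate 1, and 7.06 and 5.54 in naive WT cells. This region ended shortly before chr10:21056836-21057692, a site found in all 4 naive libraries with folds of 15.8 and 15.8 in DKO and of 12.7 and 17.8 in WT. A weak region without a listed peak in DKO and a site present at similar fold in both genotypes were thus close neighbours here. With −log10 q of at least 5, the weak region was no longer WT-only at 0 h.

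Taken over all 4 DKO libraries, the stretch without any DKO peak around the dense group ran for 147542 bp, between bases 20909398 and 21056941. It held 12 regions with a WT peak, of which 8 were WT-only at 0 h and the others were each listed in a single WT library. A longer stretch without a DKO peak, of 164240 bp between bases 20713066 and 20877307, held 0 regions, so WT cells had no peak listed there either. In all, 16 of the 30 regions (53.3%) had no peak in a DKO library at either time, against 14.1% over the series. They include the 9 WT-only regions for which the interval was chosen, so this share is partly set by the choice. The others of the 16 were each listed in a single WT library.

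WT-only regions of the interval were mostly of low to middle rank. Their folds in naive WT cells ran from 4.69 to 9.82 in replicate 1, with a median of 7.06, and from 4.24 to 16.6 in replicate 2, with a median of 7.19. For the 10 regions shared by all naive libraries, the median fold in naive WT cells was 13.8 and 14.6. The median width of merged regions was 606 bp for the WT-only regions and 983 bp for those shared by all naive libraries. A merged region can widen with each library joined, so part of that gap is built in. Single peaks in the 2 naive WT lists had median widths of 485 and 473 bp for WT-only regions, and 717.5 and 885 bp for shared ones. Over the whole series these medians were 447.5 and 427 bp for WT-only regions, and 757 and 730 bp for shared ones.

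The significance of the peaks was also set against their fold. Each peak was ranked by −log10 p among the peaks of its own list whose fold was within 10% of its own, so that a percentile over 50 means a more significant peak than is usual at that fold. In each naive WT library, 7 of the 9 WT-only peaks stood above percentile 50, against 45.1% and 43.7% of the 1932 WT-only regions of the whole series. Of the 10 regions shared by all naive libraries, 7 and 5 stood above it, against 49.7% and 49.7% of the 24438 such regions of the series, so peaks with a high significance for their fold were found in both classes. The median percentile was 74.2 and 69.3 for the WT-only regions and 59.8 and 53.0 for the shared ones. At chr10:20954710-20955861 the percentile was 79.4 and 91.9 in cultured WT cells and 94.7 and 83.1 in naive WT cells. In WT replicate 1 at 0 h its −log10 p was 39.96, where the median of 3441 peaks of like fold was 17.5. At chr10:20971708-20972625 it was 86.7 and 75.9 in naive WT cells. Among the shared sites the percentiles in naive WT cells ran from 24.1 to 75.2 in replicate 1 and from 27.3 to 76.7 in replicate 2, with chr10:20877307-20879055 lowest in both. The 2 isolated regions differed from each other, at 75.6 and 60.7 for chr10:20602476-20603081 and at 39.7 and 15.5 for chr10:21055674-21056346.

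**Figure D4:**
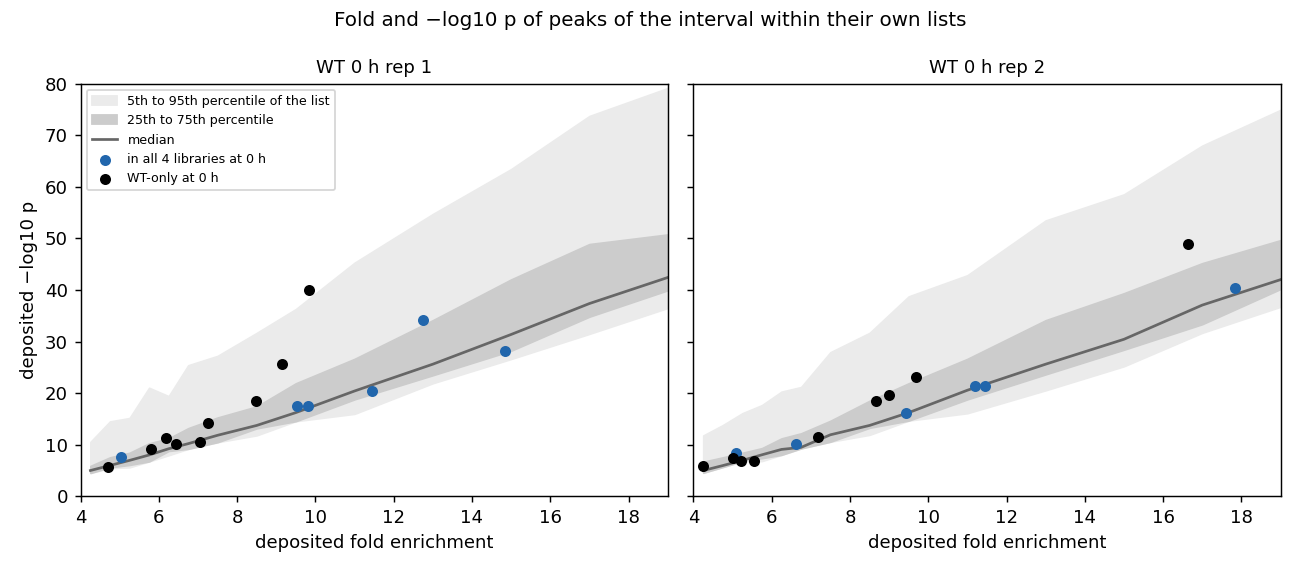
Deposited −log10 p against deposited fold enrichment for peaks of the interval with a fold under the right edge of each panel, in the 2 WT libraries at 0 h; points are regions that were WT-only at 0 h (black) or found in all 4 naive libraries (blue), and the grey bands and line give the percentiles of the whole list in bins of fold. In each library 7 of the 9 black points lie above the median line, led by chr10:20954710-20955861 at a fold of 9.82 in replicate 1 and 16.6 in replicate 2.

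The libraries of 72 h took no part in the choice of the interval, but the choice bears on them as well. The interval was picked for regions listed in naive WT cells alone, and the 16 regions without a DKO peak are members through WT peaks only, so fewer DKO than WT regions at 72 h are partly set by the choice. The genotype counts at 72 h are therefore a description, and nothing is read from a test of them; an exact two-sided permutation test over 2 against 2 libraries cannot give a p below 0.333 in any case. A peak was listed at 3 and 6 regions in DKO and at 10 and 15 in WT, a DKO minus WT difference of -8 regions. With the same 10339 strongest peaks of each list, these numbers were 3 and 4 in DKO and 6 and 5 in WT, a difference of -2. The DKO libraries thus had fewer regions in both versions, and most of the difference went when the lists were cut to equal length.

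The 9 regions that were WT-only at 0 h had a peak at 0 and 0 regions in DKO and at 2 and 4 regions in WT after 72 h, a difference of -3. These regions were required to be listed in WT and absent in DKO, so a WT excess among them follows in part from how they were defined, and it was seen over the whole series too. There, a peak was listed at 72 h for such regions in 0.518% and 2.43% of cases for DKO and 12.4% and 40.6% for WT, against 0% and 0% for DKO and 22.2% and 44.4% for WT here. With lists of equal length the numbers here were 0 and 0 in DKO and 1 and 0 in WT, a difference of -0.5.

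At 72 h, 5 of the 30 regions (16.7%) were listed in both WT libraries and absent from both DKO libraries, against 6.37% of all regions. Those WT-only at both times were chr10:20602476-20603081 and chr10:20954710-20955861, which is 2 of 30, against 0.498% of the series. Both belong to the regions WT-only at 0 h for which the interval was chosen, so this share and the 16.7% are partly set by the choice. Among the regions WT-only at 0 h, those WT-only at both times were 2 of 9 here and 197 of 1932 over the series. The other three had a peak in both naive DKO libraries. At chr10:20635121-20635929 the fold was 12.7 and 19.5 in naive DKO cells, 7.64 and 10.6 in cultured WT cells and 14.8 and 9.42 in naive WT cells. At chr10:20897985-20899176 it was 4.64 and 8.56 in naive DKO cells, 5.74 and 9.31 in cultured WT cells and 9.80 and 11.2 in naive WT cells, the DKO values being below the naive WT ones. The shared neighbour chr10:21056836-21057692 had folds of 7.68 and 15.0 in cultured WT cells, beside the naive values given above. No region was DKO-only at 72 h (0 of 30, against 0.0303% of the series). The count of 5 was 9 without WT replicate 1 of 72 h, where a peak in WT replicate 2 alone sufficed. It was 1, chr10:21056836-21057692, with lists of equal length, and 3 with summits within 100 bp.

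Culture with IL-7 and IL-15 was set against 0 h within each genotype. In DKO, 0 regions were gained, with a peak in both cultured and neither naive library, against 0.116% of the series, and 6 (20%) showed the reverse, against 29.1%. The 30 regions include 16 without any DKO peak (53.3%, against 14.1% of the series), which could not be lost in DKO. The 20% and 29.1% are therefore not shares of the naive DKO sites and cannot be compared as rates of loss. In WT, 0 regions were listed in cultured cells alone, against 0.576% of the series, and 6 (20%) in naive cells alone, against 13.0%. The interval was chosen for regions listed in naive WT cells and not in naive DKO cells, so this share of WT is partly set by the choice. It is no measure of a greater loss here. The 6 regions of WT cells include 5 of the 7 WT-only regions of the dense stretch, together with chr10:20671970-20672551, which had no peak at 72 h in either genotype and a fold of 5.99 and 4.80 in naive DKO cells and of 5.02 and 5.09 in naive WT cells. With lists of equal length the counts at 0 h alone were 0 in DKO and 1 in WT. The WT count was 11 without WT replicate 2 of 0 h and 10 without WT replicate 2 of 72 h.

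Of the 10 regions found in all naive libraries, 3 and 5 had a peak in cultured DKO cells and 7 and 9 in cultured WT cells. Over the series these shares were 40.9% and 62.7% in DKO and 65.2% and 86.9% in WT, against 30% and 50% in DKO and 70% and 90% in WT here. The region at the lower edge, chr10:20554419-20555290, went the other way, with a peak of fold 4.202 in cultured DKO replicate 2 and of 4.73 and 4.503 in cultured WT cells, against 0 peaks in naive DKO cells and a peak in naive WT replicate 2. All of these folds lie close to the lowest fold the lists hold.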

How the data were processed

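CTCF CUT&RUN had been done on 8 libraries of mouse splenic CD8+ T cells (2 per group) and IgG CUT&RUN on 1. The authors deposited 1 peak list per library, so peaks were not called on pooled samples. The build was mm9 and the tools named were MACS2 2.1.1, Bowtie2 2.2.5 and FastQC, per the submitters' processing notes. Which control and thresholds served for peak calling is not stated there. The deposited fold (a ratio to local background), −log10 p, −log10 q, score and summit columns are values of the authors' peak caller. Here they only rank, filter or describe the peaks of their own list; the score entered nothing.

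The 5 peaks on chromosome Y were left out. Where a library had several peaks in a region, the most significant would stand for it. Presence of a peak was counted per library, and the counts of 72 h were set between genotypes by exact permutation (Python 3.11.15, SciPy 1.17.1), from which nothing is read because the regions were chosen partly through WT peaks. Fold values of separate lists are not tested against each other. The overlap step found all planted regions in simulated lists. Those regions lay far apart, had similar widths and lacked no weak peaks, so this checked the code and not the merging in these data. Background shares are over all 39574 regions. The members and rules were chosen with earlier results of these data known, as was the grouping of WT-only regions less than 15 kb apart. Full values are given for regions specific to a genotype at either time, found in all libraries or at an edge. Alternatives tried were −log10 q of at least 5, equal list lengths, overlap of 50% of the shorter peak, summits within 100 bp, presence in 1 library of a group sufficing, leaving out each library, and a replicate block.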

Additional observations from a re-analysis of the deposited data

How the results depend on the processing

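Of 94 alternative values, 73 kept the direction of a difference or stayed within 1.5 times a count, 21 counts moved further and 0 reversed. Only a difference could reverse, and it was taken as kept if its sign stayed, whatever its size. Replicate deviations were nearly uncorrelated between genotypes (correlation 0.0437 at 0 h and 0.0434 at 72 h). Noise in the folds could hide a pairing, so this cannot show whether replicate numbers paired the samples. A replicate block leaves a difference of means between groups of equal size unchanged by construction. The differences of -8 and -3 at 72 h under it are therefore no check, though they are counted among the 73. With a peak in at least 1 library of a group, WT-only regions numbered 16 at 0 h and 9 at 72 h, DKO-only regions 2 at 0 h, regions at 0 h alone 13 in WT, and regions at 72 h alone 1 in DKO and 1 in WT. With lists of equal length, DKO-only regions at 0 h numbered 1, WT-only regions at 72 h 1, regions at 0 h alone 0 in DKO and 1 in WT, and regions at 72 h alone in WT 1. With summits within 100 bp, WT-only regions at 72 h numbered 3; with −log10 q of at least 5, 6 of the 9 WT-only regions of 0 h were left, all in the dense stretch. Leaving out 1 library gave 9 to 13 WT-only regions and 0 to 1 DKO-only regions at 0 h, 5 to 9 WT-only and 0 to 0 DKO-only at 72 h, 6 to 8 regions at 0 h alone in DKO and 6 to 11 in WT, and 0 to 1 at 72 h alone in either genotype. It gave differences at 72 h of -10.5 to -5.5 for all regions and -4 to -2 for those WT-only at 0 h. Fewer libraries loosen the rule for a count by construction. Equal list lengths keep only the stronger peaks of the longer lists, and they lowered some counts and raised others. The cause of these and of the other changes was not tested. Peaks of fold under 4 are absent from the lists, which limits what an absent peak shows.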

Other observations

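By the authors' p-value, the 9 WT-only regions covered a wide range of the naive WT lists, from percentile 5.36 to 71.5 in replicate 1 with a median of 27.1, and from 5.98 to 80.5 in replicate 2 with a median of 29.8. The highest in both was chr10:20954710-20955861, which stood at percentiles 44.1 and 31.0 of the cultured WT lists. The isolated region chr10:20602476-20603081 stood at 22.4 and 45.5 of the cultured WT lists and at 27.1 and 5.98 of the naive WT lists. Percentiles of lists of different lengths show no change, so these are values of each list only.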
